A study of Mus musculus with 5 samples.

Results

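The genes described here encode the regulators and structural parts of motile cilia, the beating projections on the ependymal cells that line the brain ventricles. The members were chosen as the rows of the deposited striatal expression table whose gene name equals an entry of a list of 43 genes, and 34 of the table's 26369 genes matched in this way. The other 9 listed genes were present under older symbols and were found by Ensembl identifier: Mcidas as Gm6320, Cfap126 as 1700009P17Rik, and the dynein heavy chain genes Dnah1, Dnah2, Dnah5, Dnah6, Dnah9, Dnah11 and Dnah12 as Dnahc1 and so on. Counts over members refer to the 34 genes matched by name unless the 9 genes are named.

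Total RNA from striatum was sequenced from R6/1 mice (n = 2 libraries) and from wild-type (WT) mice (n = 3 libraries). R6/1 mice are a model of Huntington's disease: their transgene holds exon 1 of the disease gene, with a CAG expansion that the labels put at 115, and the WT mice are the controls without it. Both groups have a mixed background of the CBA and C57BL/6 strains in equal parts. The labels name no age, sex, litter or batch and do not say that each library came from a separate animal, so the p-values reflect differences among 5 libraries whose spread may be technical.

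Ependymal cells carry tufts of motile cilia that move cerebrospinal fluid along the ventricle wall. The core of such a cilium is the axoneme, a ring of microtubule doublets around a central pair, on which dynein arms supply the force and radial spokes and the central apparatus coordinate the beat. Most other brain cells bear at most a single non-motile primary cilium, so transcripts of motile cilia in dissected brain tissue are known mainly from ependymal and choroid plexus epithelium, which lie at the ventricles next to the striatum. The transcription factor FOXJ1 and the RFX factors switch on the ciliary programme, and MCIDAS and CCNO drive the mass production of basal bodies that precedes it.

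Libraries held 34379064 and 29871306 counts in R6/1 mice, against 23046266, 19630036 and 22963042 in WT mice, so that both R6/1 libraries were deeper than every WT library. Levels are given as CPM, counts scaled to library size, and 1 count equalled 0.0291 to 0.0509 CPM by library. All 34 members and all 9 genes under older symbols were among the 17202 genes that passed the filter on low counts, and the ependymal markers Foxj1, Ccdc153, Tmem212 and Dynlrb2 had counts in every library. The 20 listed choroid plexus genes, which mark the ventricular tissue next to the striatum, were summed in each library. The sums were 477 and 344 CPM in R6/1 replicates 1 and 2, against 5790, 5750 and 436 CPM in WT replicates 1 to 3. Enpp2 alone had 334 and 288 CPM in R6/1 replicates 1 and 2, against 1864, 1903 and 325 CPM in WT replicates 1 to 3. The low sums were thus mostly Enpp2. WT replicates 1 and 2 therefore stood apart from the other 3 libraries in choroid plexus RNA, and each of the 20 genes had counts in at least 1 library. The 10 listed genes of medium spiny neurons, the main striatal cell type, were detected in all libraries. All 10 were called lower in R6/1 mice, where 12.8% of all tested genes were, and their median log2 fold change was -1.88. Scn4b, Pde10a, Adora2a, Penk, Drd2 and Rgs9 had the smallest p.

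Of the 34 members, 5 were called lower in R6/1 than in WT striatum (14.7%), where 12.8% of all tested genes were called lower. A single member was called higher (2.94%), where 9.72% of all tested genes were called higher. Calls in either direction covered 22.6% of all tested genes, and 28 members were not called. The lower count was 3 without WT replicate 1, where 15.5% of all tested genes were called in either direction. It was 2 with choroid plexus level as a covariate, where 9.41% were. Fewer members were called lower without R6/1 replicate 2, and none higher with either R6/1 library left out. Those fits hold 1 R6/1 library, and calls over all genes dropped there too. The 5 lower members were Ccno, Wdr78, Ccdc153, Ak8 and Rfx3, and the higher member was Enkur. A call is an adjusted p below 0.05 in edgeR's quasi-likelihood test with Benjamini-Hochberg adjustment over all tested genes, and each log2 fold change is that of R6/1 over WT, given with its standard error (SE). In the authors' deposited table, 5 members were likewise lower and 1 higher at an adjusted p below 0.05.

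Most members lay a little lower in R6/1 striatum without passing the test. The median member log2 fold change was -0.55, against -0.01 over all tested genes, and 29 members were below 0 and 5 above (85.3% below, against 51.0% of all tested genes). Both R6/1 libraries were below all 3 WT libraries for 8 members (23.5%), where 26.9% of all tested genes showed this, and both were above all WT libraries for 1 member (2.94%), where 27.2% of all tested genes did. The share of members called or separated in the lower direction was thus near the background, while their median was lower. The median was -1.26 without R6/1 replicate 1, -0.21 without R6/1 replicate 2 and -0.33 without WT replicate 1, and it was 0.01 with WT replicates 1 and 2 both left out. In bulk tissue, fewer cells of a type and less RNA per cell cannot be told apart.

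**Figure D1:**
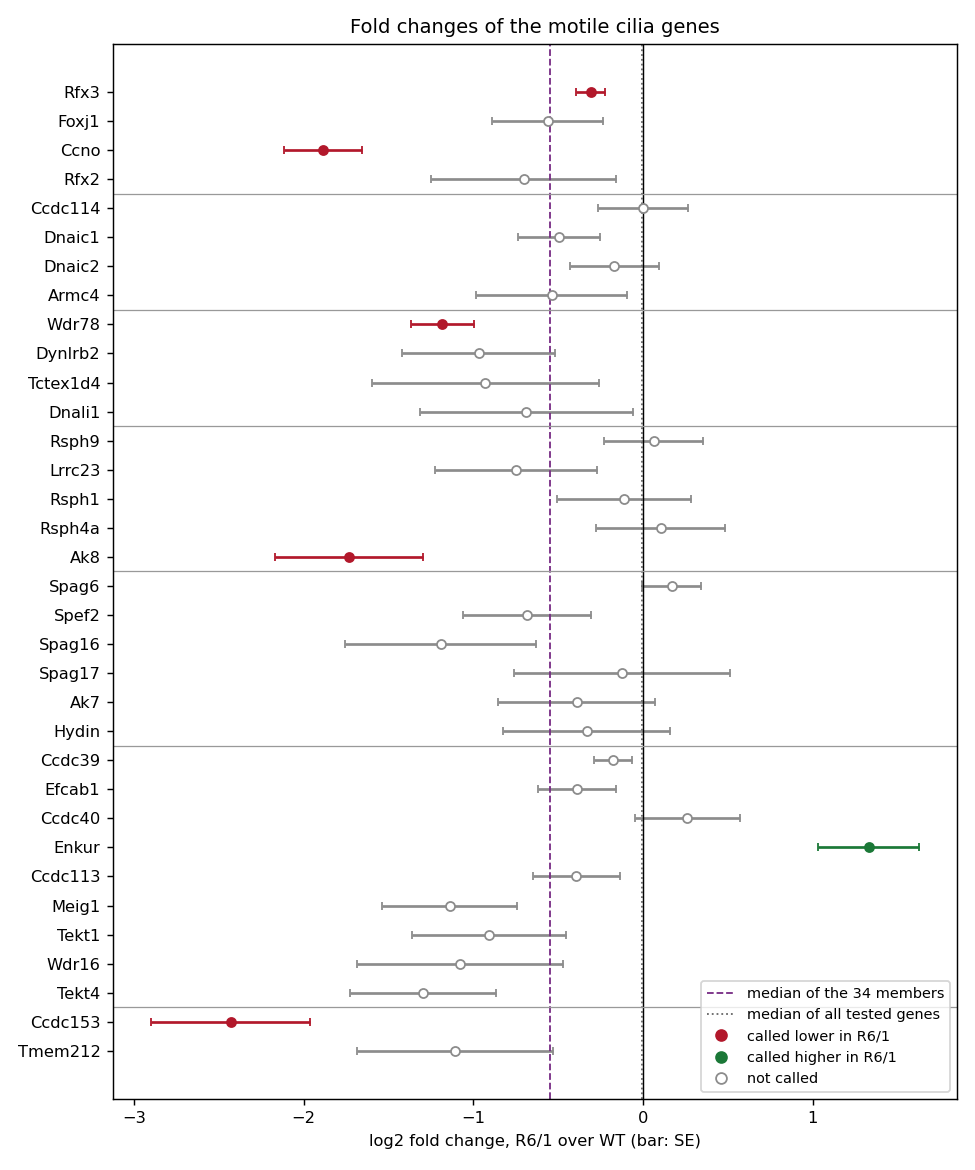
The plot of log2 fold changes shows R6/1 over WT for the 34 members, grouped by their role in the cilium, as points with the SE of the edgeR fit. Called members are coloured, and 29 of 34 points lie below 0 although 5 were called lower and 1 higher.

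Among the regulators, Ccno had the smallest p. Ccno encodes cyclin O, needed for the amplification of centrioles in multiciliated cells. It had 1.03 and 0.956 CPM in R6/1 replicates 1 and 2, against 3.49, 4.21 and 3.34 CPM in WT replicates 1 to 3. The R6/1 libraries agreed closely with each other, and the groups did not overlap. Ccno was 3.69-fold lower in R6/1 mice (log2 fold change -1.88 ± 0.23 SE, adjusted p = 0.0023 by edgeR), and it was called under all 13 alternative settings, with adjusted p between 9.06e-07 and 0.032. The levels are low, since the counts were 37 and 30 in R6/1 libraries and 78, 80 and 74 in WT libraries.

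Gm6320, the symbol under which the table lists Mcidas, encodes a geminin-related co-activator that starts the multiciliated programme. It had 0.777 and 0.765 CPM in R6/1 libraries, against 1.17, 1.42 and 1.81 CPM in WT libraries. All WT libraries lay above both R6/1 libraries, but the difference missed the threshold (log2 fold change -0.92 ± 0.30 SE, adjusted p = 0.068 by edgeR). In the authors' deposited table Gm6320 has a log2 fold change of -0.78 and an adjusted p of 0.046, below the same threshold. Ccno and Mcidas lie close together on mouse chromosome 13 in the RefSeq annotation.

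The RFX factors bind the X-box, a motif whose full form reads GTNNCC, then any 2 bases, then GGNNAC, and whose short core form was searched as GTTGCCA. The upstream stretches of Ccno and Gm6320 are shown because both genes lie at the head of the programme and both windows hold such a match. The first has the full form and the second the short form in capitals, and in Ccno the short form also lies inside the full one. The sequences are from RefSeq on GRCm38.p6, both on the plus strand, at chr13:112987560-112987619 and chr13:112993650-112993702.
Ccno: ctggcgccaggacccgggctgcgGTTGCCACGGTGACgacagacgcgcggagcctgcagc
Gm6320: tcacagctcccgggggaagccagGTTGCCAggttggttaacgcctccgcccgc
The capitals start 219 bases before the annotated start of Ccno and 195 bases before that of Gm6320. A match is a description of letters and not a bound site.

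Rfx3, a transcription factor of the RFX family that acts on both primary and motile cilia, was the most abundant member. The authors' signal per kb of gene length averaged 1648 over the 5 libraries for Rfx3, against 458 for Ccdc39, the next member. Rfx3 had 143.9 and 125.2 CPM in R6/1 libraries, against 168.8, 172.3 and 158.4 CPM in WT libraries. The groups did not overlap, and Rfx3 was 1.24-fold lower in R6/1 mice (log2 fold change -0.31 ± 0.09 SE, adjusted p = 0.041 by edgeR). It kept its call in 4 of the 13 alternatives and lost it whenever any 1 library was left out.

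Foxj1, the master regulator of motile ciliogenesis, had 7.27 and 3.51 CPM in R6/1 libraries, against 9.72, 7.95 and 6.27 CPM in WT libraries. R6/1 replicate 1 lay inside the WT range, and no difference was shown (log2 fold change -0.56 ± 0.33 SE, adjusted p = 0.25 by edgeR). Rfx2, a further RFX factor used in motile cilia, had 1.39 and 0.733 CPM in R6/1 libraries, against 2.55, 2.002 and 0.677 CPM in WT libraries. The lowest Rfx2 value of all was that of WT replicate 3, and the gene was not called (log2 fold change -0.70 ± 0.54 SE, adjusted p = 0.38 by edgeR). Over the 4 regulators matched by name, 2 were called lower and the median log2 fold change was -0.63.

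**Figure D2:**
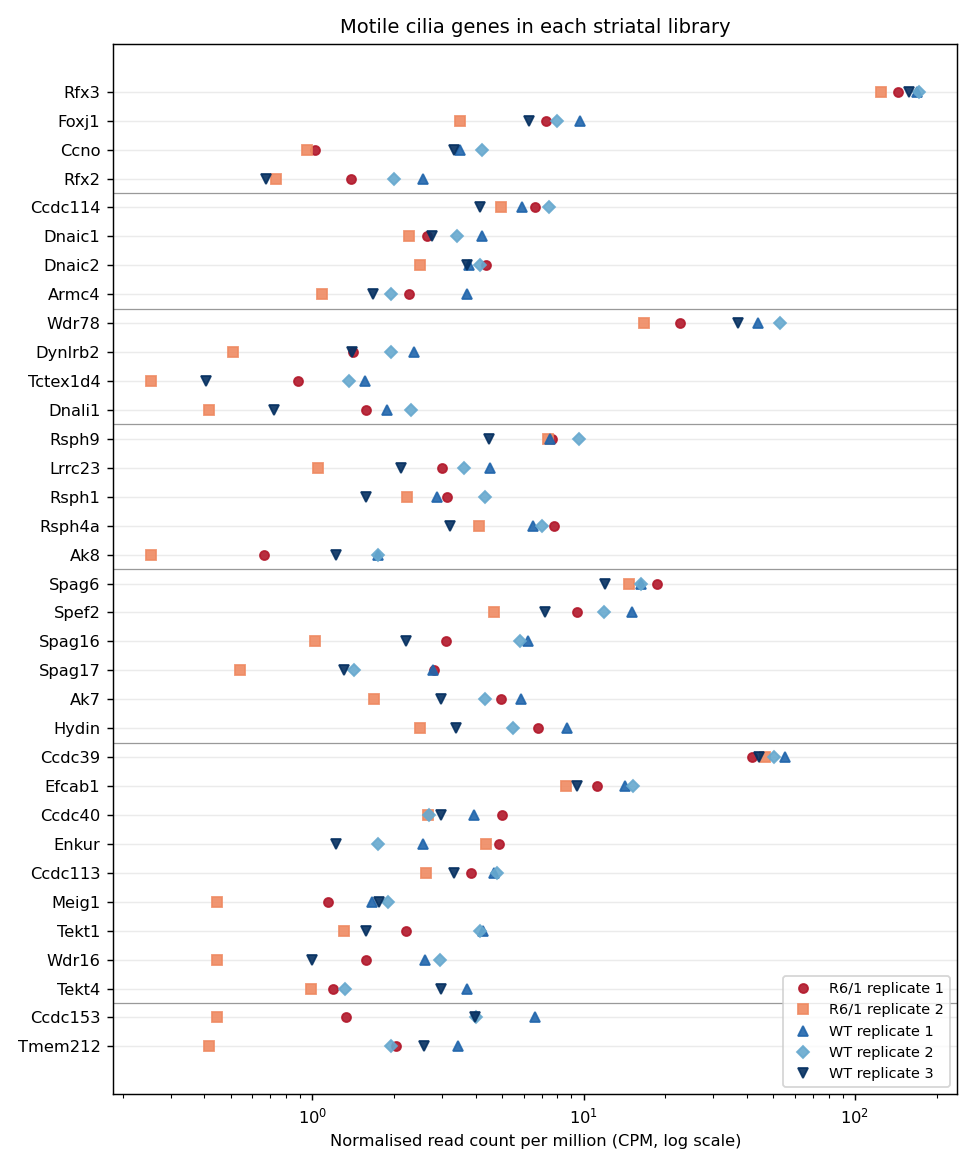
The plot of member levels shows CPM on TMM library sizes, on a log axis, for the 34 members in each library, with R6/1 libraries beside WT libraries and members ordered by role. Ccno, Wdr78, Ccdc153, Ak8 and Rfx3 show both R6/1 points below all 3 WT points, and Enkur shows both above.

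The outer dynein arms set the beat frequency. The 4 members placed here with these arms and the proteins that dock them gave no call, with a median log2 fold change of -0.33. Dnaic1, an intermediate chain of the outer arm whose human gene is mutated in primary ciliary dyskinesia, had 2.64 and 2.26 CPM in R6/1 libraries, against 4.21, 3.42 and 2.75 CPM in WT libraries. The groups did not overlap, though WT replicate 3 lay only just above R6/1 replicate 1 (log2 fold change -0.50 ± 0.24 SE, adjusted p = 0.18 by edgeR). Armc4, a docking complex protein, had 2.27 and 1.08 CPM in R6/1 libraries, against 3.72, 1.95 and 1.67 CPM in WT libraries. Its groups overlapped, and it was not called (log2 fold change -0.54 ± 0.44 SE, adjusted p = 0.42 by edgeR).

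The outer arm heavy chains are the large motor subunits. Dnahc9 had 16.8 and 5.87 CPM in R6/1 libraries, against 24.1, 20.6 and 9.88 CPM in WT libraries, and its groups overlapped. Dnahc11 had 13.4 and 5.39 CPM in R6/1 libraries, against 18.6, 16.9 and 7.35 CPM in WT libraries. Dnahc5 had 17.2 and 7.43 CPM in R6/1 libraries, against 17.2, 12.2 and 12.9 CPM in WT libraries. In each of the 3 genes R6/1 replicate 2 was the lowest library. R6/1 replicate 1 lay within the WT range for Dnahc9 and Dnahc11 and level with the highest WT library for Dnahc5, and none was called (lowest adjusted p = 0.35 by edgeR, for Dnahc9).

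Among the inner arm proteins, which shape the waveform, Wdr78 was the called member and is an intermediate chain of the dynein f complex. Wdr78 had 22.7 and 16.7 CPM in R6/1 libraries, against 44.0, 53.1 and 37.0 CPM in WT libraries. Both R6/1 libraries lay well below every WT library, and Wdr78 was 2.27-fold lower (log2 fold change -1.18 ± 0.19 SE, adjusted p = 0.0058 by edgeR). It was no longer called without R6/1 replicate 2 (adjusted p = 0.053), where 6.13% of all genes were called, and kept its call in the 12 other alternatives. Dynlrb2, a dynein light chain of the roadblock type, had 1.41 and 0.510 CPM in R6/1 libraries, against 2.37, 1.95 and 1.399 CPM in WT libraries, with R6/1 replicate 1 just above WT replicate 3 (log2 fold change -0.97 ± 0.45 SE, adjusted p = 0.16 by edgeR).

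Dnahc1, the heavy chain of an inner arm, was the called gene among the 7 heavy chains of the member list, all of them outside the set matched by name. In the companion list of other motile cilia genes, the heavy chain gene Dnahc7b was also called lower (log2 fold change -0.79 ± 0.17 SE, adjusted p = 0.018 by edgeR), while Dnahc3 and Dnahc10 were not called. Dnahc1 and Dnahc7b are described because of their calls. Dnahc1 had 7.60 and 6.41 CPM in R6/1 libraries, against 18.4, 16.4 and 14.3 CPM in WT libraries. The groups were far apart relative to their spread, and Dnahc1 was 2.34-fold lower in R6/1 mice (log2 fold change -1.22 ± 0.16 SE, adjusted p = 0.0031 by edgeR), with a call in all 13 alternatives. Dnahc12 had 10.6 and 3.25 CPM in R6/1 libraries, against 16.2, 7.22 and 8.98 CPM in WT libraries, and overlapped. Dnahc2 had 10.5 and 6.28 CPM in R6/1 libraries, against 10.7, 8.64 and 6.496 CPM in WT libraries, a log2 fold change of -0.03.

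Dnahc6, an inner arm heavy chain singled out after its values were seen, had the widest gap between the R6/1 libraries of all 43 listed genes. It had 101.8 and 5.00 CPM in R6/1 replicates 1 and 2, against 132.2, 78.3 and 81.9 CPM in WT replicates 1 to 3. R6/1 replicate 2 alone was low, with 157 counts where R6/1 replicate 1 had 3669, a 20.3-fold difference within the group. Over all 5 libraries the log2 fold change was -0.86 ± 0.91 SE (adjusted p = 0.53 by edgeR). Without R6/1 replicate 1 it was -4.28 (adjusted p = 0.0061), and without R6/1 replicate 2 it was 0.06 (adjusted p = 0.92), so a single library decides the value and no genotype difference can be read from it. Each of these 2 fits has 1 R6/1 library and takes its spread from the WT libraries alone.

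**Figure D3:**
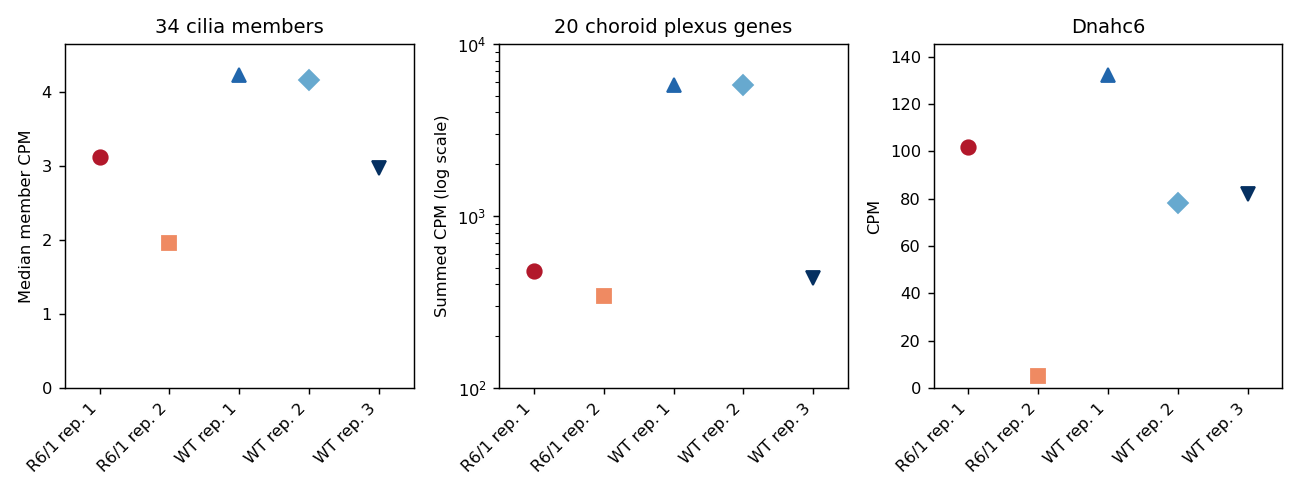
The 3 panels show, for each library with R6/1 left of WT, the median CPM of the 34 members, the summed CPM of the 20 choroid plexus genes on a log axis, and the CPM of Dnahc6. The member median is lowest in R6/1 replicate 2, and Dnahc6 is low in R6/1 replicate 2 alone. The choroid plexus sum is high in WT replicates 1 and 2 alone and is mostly Enpp2 in the other libraries.

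Radial spokes carry signals from the central apparatus to the dynein arms, and 1 of the 5 members placed with them was called, with a median log2 fold change of -0.11. That member was Ak8, an adenylate kinase of motile cilia, with 0.666 and 0.255 CPM in R6/1 libraries, against 1.75, 1.74 and 1.22 CPM in WT libraries. Both R6/1 libraries were below all WT libraries, on counts of 24 and 8 in R6/1 mice and 39, 33 and 27 in WT mice. Ak8 was 3.33-fold lower (log2 fold change -1.73 ± 0.44 SE, adjusted p = 0.03 by edgeR), and kept its call in 8 of 13 alternatives. The spoke head protein gene Rsph9 had 7.63 and 7.36 CPM in R6/1 libraries, against 7.48, 9.64 and 4.47 CPM in WT libraries, so that both R6/1 libraries lay within the WT range (log2 fold change 0.06 ± 0.29 SE, adjusted p = 0.90 by edgeR).

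Lrrc23, a protein of the radial spokes, had 2.99 and 1.05 CPM in R6/1 libraries, against 4.53, 3.63 and 2.12 CPM in WT libraries. Its groups overlapped and it was not called (log2 fold change -0.75 ± 0.48 SE, adjusted p = 0.29 by edgeR). The Lrrc23 window held the short X-box form at 2 places, and the nearer one lies 39 bases before the start, on the minus strand of GRCm38.p6 at chr6:124779737-124779789 in RefSeq.
Lrrc23: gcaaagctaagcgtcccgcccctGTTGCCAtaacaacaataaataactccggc
The stretch is shown because the same 7 letters, in capitals, appear upstream of Ccno and Gm6320, while the 3 genes differ in how their libraries separate.

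The central apparatus is built on the central pair of microtubules and helps to coordinate the beat. None of its 6 members was called, and their median log2 fold change was -0.36. Spag16 had 3.11 and 1.02 CPM in R6/1 libraries, against 6.23, 5.85 and 2.21 CPM in WT libraries (log2 fold change -1.19 ± 0.56 SE, adjusted p = 0.17 by edgeR). Spef2 had 9.48 and 4.65 CPM in R6/1 libraries, against 15.01, 11.9 and 7.22 CPM in WT libraries (log2 fold change -0.68 ± 0.38 SE, adjusted p = 0.23 by edgeR). In both genes R6/1 replicate 1 lay above WT replicate 3, and R6/1 replicate 2 was lowest.

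Spag6, which is among the most abundant members per kb, had 18.6 and 14.7 CPM in R6/1 libraries, against 16.3, 16.3 and 12.0 CPM in WT libraries. The groups overlapped, and Spag6 was not called (log2 fold change 0.17 ± 0.17 SE, adjusted p = 0.52 by edgeR). Spag17, a central apparatus protein named after its values were seen, had 2.80 and 0.542 CPM in R6/1 libraries, against 2.78, 1.42 and 1.31 CPM in WT libraries, so that the highest and the lowest library were both from R6/1 mice.

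Among 9 members placed here with the rulers, tektins and proteins linked to the doublet microtubules, none was called lower and 1 was called higher. Their median log2 fold change was -0.39. The higher member, Enkur, encodes enkurin, a protein bound inside the doublets. It had 4.88 and 4.37 CPM in R6/1 libraries, against 2.55, 1.74 and 1.22 CPM in WT libraries. Both R6/1 libraries were above every WT library, and Enkur was 2.51-fold higher (log2 fold change 1.33 ± 0.30 SE, adjusted p = 0.020 by edgeR). Enkur was not called without R6/1 replicate 1 (adjusted p = 0.12) or without R6/1 replicate 2 (adjusted p = 0.091), and the difference stayed positive in both cases.

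Tekt4, a tektin of the doublet wall, had 1.19 and 0.988 CPM in R6/1 libraries, against 3.72, 1.32 and 2.98 CPM in WT libraries. The groups did not overlap, with WT replicate 2 close to the R6/1 libraries (log2 fold change -1.29 ± 0.43 SE, adjusted p = 0.07 by edgeR). It was called in only 4 of the 13 alternatives, among them DESeq2 (adjusted p = 0.048) and the edgeR fit without WT replicate 2 (adjusted p = 0.0068). Its upstream window holds the full X-box form, shown with that form in capitals for comparison with Ccno, 160 bases before the start on the plus strand of GRCm38.p6 at chr17:25471407-25471466 in RefSeq.
Tekt4: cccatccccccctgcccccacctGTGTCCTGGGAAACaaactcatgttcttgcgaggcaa

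Ccdc39, which with Ccdc40 forms the ruler that spaces arms and spokes along the doublets, had 41.7 and 46.6 CPM in R6/1 libraries, against 55.1, 50.4 and 44.3 CPM in WT libraries. The groups overlapped (log2 fold change -0.18 ± 0.11 SE, adjusted p = 0.29 by edgeR). Exons of Ccdc39 share 1256 bases with Ttc14 on the other strand in the GENCODE annotation, and since the strand setting of the counting is not given, reads of the pair may not be told apart. Ttc14 averaged 259 CPM in R6/1 and 260 CPM in WT libraries. Efcab1, a calcium-binding protein of motile cilia, had 11.2 and 8.61 CPM in R6/1 libraries, against 14.2, 15.2 and 9.43 CPM in WT libraries, with overlap and no call (log2 fold change -0.39 ± 0.23 SE, adjusted p = 0.26 by edgeR).

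The same kind of overlap was found for 9 members and for 5 of the genes under older symbols, all on the opposite strand and none on the same strand. Among the called members it touched Wdr78, which shares 130 exon bases with Mier1, and Mier1 differed little, with 93.8 CPM in R6/1 and 87.5 CPM in WT libraries (log2 fold change 0.10 ± 0.07 SE, adjusted p = 0.35 by edgeR). Dnahc1 shares 551 exon bases with Gm35823, for which no value was read. Dnaic1 shares 15 exon bases with Enho, which was itself lower in R6/1 mice (log2 fold change -0.77 ± 0.13 SE, adjusted p = 0.0084 by edgeR).

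Ccdc153 and Tmem212 are transcripts that mark ependymal cells in mouse brain and whose protein functions are less known. Ccdc153 had 1.33 and 0.446 CPM in R6/1 libraries, against 6.63, 4.003 and 3.97 CPM in WT libraries. Both R6/1 libraries were far below every WT library, and Ccdc153 was 5.39-fold lower (log2 fold change -2.43 ± 0.47 SE, adjusted p = 0.012 by edgeR), the largest difference in size among the called members. Ccdc153 was not called without R6/1 replicate 2 (adjusted p = 0.058) and with choroid plexus level as a covariate (adjusted p = 0.069). Tmem212 had 2.02 and 0.414 CPM in R6/1 libraries, against 3.45, 1.95 and 2.57 CPM in WT libraries, and R6/1 replicate 1 lay inside the WT range (log2 fold change -1.11 ± 0.58 SE, adjusted p = 0.20 by edgeR). Without R6/1 replicate 1 the adjusted p was 0.037, with a single R6/1 library whose spread is taken from WT.

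The 14 members outside the rule for named genes, Spag17 and Meig1 included, ranged from 0.255 to 8.69 CPM over the libraries. Their log2 fold changes lay between -1.14 and 0.26, with 12 below 0 and 2 above, and their lowest adjusted p was 0.079 by edgeR. That lowest value belonged to Meig1, also named after its values were seen, which had 1.14 and 0.446 CPM in R6/1 libraries, against 1.66, 1.90 and 1.76 CPM in WT libraries. Its groups did not overlap. Of the 9 genes under older symbols, 1 was called lower (11.1%) and none higher by edgeR. Among these 9 genes, 2 had an unadjusted p below 0.05, and their median log2 fold change was -0.64. Over all 43 listed genes 6 were called lower (14.0%) and 1 higher (2.33%), with a median of -0.60. Among all tested genes 12.8% were called lower and 9.72% higher.

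The members differed between replicates of 1 genotype as well as between genotypes. R6/1 replicate 2 was the lowest of the 5 libraries for 26 members, WT replicate 3 for 7 and R6/1 replicate 1 for 1. The highest library was WT replicate 1 for 17 members, WT replicate 2 for 11 and R6/1 replicate 1 for 6. The median member level was 3.12 and 1.96 CPM in R6/1 replicates 1 and 2, against 4.23, 4.16 and 2.98 CPM in WT replicates 1 to 3.

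Within R6/1 mice, replicate 1 exceeded replicate 2 for 33 of 34 members, with a median ratio of 1.89, while the median over all tested genes was 1.00. Within WT mice, replicate 1 exceeded replicate 3 also for 33 members, with a median ratio of 1.67 against 0.999 over all tested genes. These WT libraries had the highest and lowest median member level, 4.23 and 2.98 CPM, while WT replicate 2 had 4.16 CPM. R6/1 mice have a single pair, so the ratios of the groups are not like for like. The R6/1 ratio was above 2 for 16 members and above 3 for 6, led by Spag17 at 5.17 and Tmem212 at 4.89. It was at most 1.2 for 6 members, namely Ccdc39, Ccno, Dnaic1, Enkur, Rfx3 and Rsph9. Of the 6 called members, Ccno, Enkur and Rfx3 were thus steady between the R6/1 libraries, whereas Ccdc153 and Ak8 were not.

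**Figure D4:**
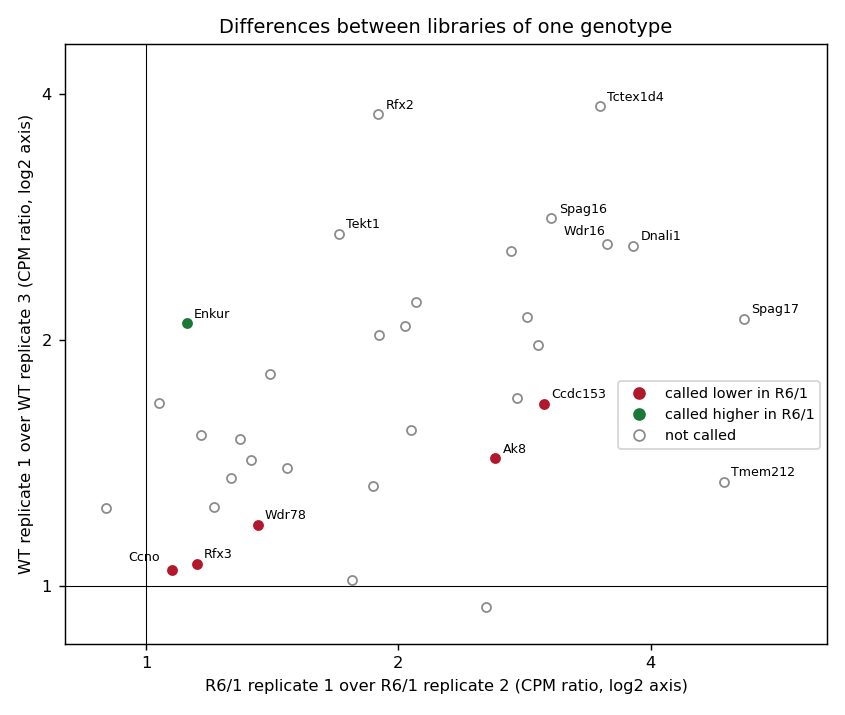
The plot of replicate ratios sets the CPM ratio of R6/1 replicate 1 over 2 against that of WT replicate 1 over 3, with a point per member. Both axes are log axes, and the WT pair is that with the highest and lowest member median. On each axis 33 of the 34 points lie above 1, and the R6/1 ratios run from 0.895 to 5.17.

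Choroid plexus RNA was high in WT replicates 1 and 2 and not in WT replicate 3, and its values are given beside the members. Of 20 choroid plexus genes, 9 were called lower and none higher by edgeR, where 19 of the 20 had an unadjusted p below 0.05, and the median log2 fold change was -3.90. Tmem72, Steap1, Kcnj13, Slc4a5, Col8a1 and Folr1 had the smallest p among them. Ttr, the defining choroid plexus transcript, had 90.5 and 21.1 CPM in R6/1 libraries, against 3466, 3341 and 69.4 CPM in WT libraries (adjusted p = 0.0499 by edgeR). WT replicate 3 lay between the R6/1 libraries for Ttr, and WT replicates 1 and 2 were far above. With WT replicates 1 and 2 both left out, 4 members were called lower, namely Ccdc153, Ccno, Tekt4 and Wdr78, and 2 higher, Enkur and Rsph9, where 19.4% of all genes were called in either direction. With choroid plexus level as a covariate, Ccno and Wdr78 were called lower and Enkur higher, while calls over all genes dropped to 9.41%, against 22.6% without the covariate. With WT replicates 1 and 2 left out, WT replicate 3 is the only WT library. The part of choroid plexus RNA in the member calls was not tested.

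Ependymal genes outside the cilium mostly lay lower in R6/1 striatum. Of 15 tested, 13 had a log2 fold change below 0 (86.7%, against 51.0% of all tested genes), and the median was -0.46. Calls were lower for 4 (26.7%) and higher for 1 (6.67%), where 12.8% and 9.72% of all tested genes were called. Ephx1, an epoxide hydrolase, was 2.85-fold lower in R6/1 mice (log2 fold change -1.51 ± 0.15 SE, edgeR), and Rarres2, Fxyd1 and Pcp4l1 were the other lower genes. Vim, the intermediate filament vimentin, was 1.54-fold higher (log2 fold change 0.62 ± 0.17 SE, edgeR). These genes summed to 425 and 344 CPM in R6/1 libraries, against 600, 532 and 475 CPM in WT libraries, without overlap.

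A companion list of other motile cilia genes had 84 tested genes, of which 13 were called lower (15.5%) and 5 higher (5.95%). Among all tested genes 12.8% were called lower and 9.72% higher. The median log2 fold change of the list was -0.48. Kif27, a kinesin needed for motile cilia, had 17.2 and 14.5 CPM in R6/1 libraries, against 32.6, 33.9 and 30.3 CPM in WT libraries. Its groups were widely separated (log2 fold change -1.02 ± 0.11 SE, adjusted p = 0.0014 by edgeR). Gm872, an older symbol of the central apparatus gene Cfap54, had 67.7 and 57.9 CPM in R6/1 libraries, against 35.7, 27.6 and 24.1 CPM in WT libraries, a 2.15-fold higher level (log2 fold change 1.11 ± 0.16 SE, adjusted p = 0.0044 by edgeR). Iqub was also lower (log2 fold change -1.67, adjusted p = 0.0042 by edgeR), and Gas8 and Stk36 were higher (log2 fold changes 0.62 and 1.33, adjusted p = 0.0069 and 0.0074 by edgeR). Sntn was called lower on 4 and 3 counts in R6/1 libraries and 25, 12 and 19 counts in WT libraries. The median ratio of R6/1 replicate 1 over 2 was 1.60 in this list and that of WT replicate 1 over 3 was 1.47, so that these genes differed between the same libraries as the members.

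Genes of the primary cilium and of intraflagellar transport, the cargo system that builds every cilium, had a median near that of all genes. Their median log2 fold change was -0.05, against -0.01 over all tested genes. Of 52 tested, 4 were called lower (7.69%) and 9 higher (17.3%), where 12.8% and 9.72% of all tested genes were. Their median ratio of R6/1 replicate 1 over 2 was 1.00. Ahi1, a protein of the transition zone at the base of the cilium, was 1.76-fold higher in R6/1 mice (log2 fold change 0.82 ± 0.09 SE, adjusted p = 0.0016 by edgeR). Tctn2, a further transition zone protein, was 1.95-fold higher (log2 fold change 0.96 ± 0.14 SE, edgeR). Dync2h1, Ift172 and Bbs1 were also higher (log2 fold changes 0.35, 0.50 and 0.43), and Bbs2 was lower (-0.62). Whether the lists differ from each other was not tested.

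Markers of other cells of the ventricle wall and striatum are given for reference. Of 10 genes of subventricular progenitors and neuroblasts, none was called lower and 1 higher (10.0%), Dcx (log2 fold change 0.41, adjusted p = 0.018 by edgeR). Of these 10 genes, 3 had an unadjusted p below 0.05. Of 10 astrocyte genes, Slc1a2, Slc1a3, Aldh1l1 and Aldoc were called lower (40.0%) and Gfap higher (10.0%). Among all tested genes 12.8% were called lower and 9.72% higher. The part of these cells in the member values was not tested.

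The promoter letters of the members were set beside those of all genes, each window covering 250 bases before to 50 after the RefSeq start. RefSeq windows were found for 27 of 34 members and for all 9 genes under older symbols, against 27025 genes in all. On either strand, the full X-box form was present in 4 of the 27 member windows (14.8%), against 2.16% of all windows, in Ccno, Rfx2, Rsph9 and Tekt4. The short form was also in 4 (14.8%), against 5.02% of all windows, in Ccno, Hydin, Lrrc23 and Tekt1. GTAAACA, a core letter string of forkhead factors such as FOXJ1, was in 1 member window (3.70%, Ak7), against 4.05% of all windows. Ccno was called lower among the 4 members with the full form, while Rfx2, Rsph9 and Tekt4 were not called. Among the primary cilium genes, 26.7% of 45 windows held the full form, and among the other motile cilia genes 12.9% of 70 did.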

How the data were processed

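The authors deposited raw read counts per Ensembl gene for 5 striatal libraries, per the file headers. The same table holds the authors' signal, counts divided by 1 size factor per library and also per kb of gene length, and the log2 fold changes and p-values of the authors' comparison. Per the labels' protocols, libraries were strand-specific and depleted of ribosomal RNA. The submitters' processing notes name CASAVA 1.8.2, TopHat 1.4.1, HTSeq 0.5.4p3, DESeq2 1.0.19 and build mm9. The labels and headers state neither the Ensembl release nor the strand setting of the counting.

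Testing used edgeR 4.0.16 (quasi-likelihood F test, R 4.3.3) on the counts, with TMM normalization, filterByExpr (minimum count 10, minimum total 15), genotype as the only term and Benjamini-Hochberg adjustment over 17202 genes. The SE is the size of the log2 fold change divided by the square root of F. CPM were computed on TMM library sizes, and the deposited signal per kb was used only to compare levels between genes. RefSeq promoter windows are on GRCm38.p6, and GENCODE gene models were used only for gene names and strand overlap. The scripts were tested on simulated data. DESeq2 1.42.0, voom in limma 3.58.1, RLE factors, library totals alone, no filter, leaving out libraries and 2 covariates were the alternatives.

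Values in every library are given for called members, the 5 highest per kb, the 2 with the smallest p per role and all regulators, and of each companion list up to 6 called genes, by p, and Ttr are named. Other members are given by range and count, apart from Spag17 and Meig1, which are marked as named after their values were seen. Of the genes under older symbols, Gm6320 and the heavy chains are given beside this rule, and only Dnahc6 carries that mark. Dnahc7b, Dnahc3 and Dnahc10 of the companion list are also named beside the rule. Members and lists were chosen with earlier results of these data known. Replicate pairs of a group differed by more than counting noise, with a mean chi-square per gene of 11.4 in R6/1 and 16.2 to 20.8 in WT. These values do not show that the libraries came from separate animals. All 5 libraries were kept in the main fit.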

Additional observations from a re-analysis of the deposited data

How the results depend on the processing

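The 5 lower and 1 higher calls and the median of -0.55 stayed within 1.5 times, or 1 SD, with RLE factors, library totals alone, DESeq2, voom and no filter. Library totals alone moved the median of all genes to 0.11 and that of members to -0.43, a difference of -0.54 as before. Leaving out each library in turn gave 1 to 6 lower calls, 0 to 1 higher calls and medians of -1.26 to -0.21, with the single lower call without R6/1 replicate 2. Calls over all genes moved too, at 22.6% with all libraries, 15.5%, 28.1% and 14.6% without WT replicates 1, 2 and 3, 6.5% without R6/1 replicate 1 and 6.13% without R6/1 replicate 2. With either R6/1 library left out, that group holds 1 library, and its spread is taken from the WT libraries alone. With WT replicates 1 and 2 both left out, a fit that takes the spread of the remaining WT library to equal that between the R6/1 libraries, 2 members were called higher and the median was 0.0083, with Rfx2 at 0.66, Armc4 at 0.019 and Efcab1 at 0.07. With the choroid plexus covariate, which called 9.41% of all genes, 2 were lower and the median was 0.11, with Rfx2 at 0.77, Spag16 at 0.071, Spef2 at 0.084, Armc4 at 0.13, Lrrc23 at 0.10 and Efcab1 at 0.12. With the mean of the other motile cilia genes as a covariate, chosen after seeing the data and calling 9.46% of all genes, 3 were lower and the median was -0.021, with Rfx2 at 0.25, Armc4 at 0.13 and Lrrc23 at 0.026. Leaving out a library gave log2 fold changes of -0.19 to 0.33 for Rsph9, -0.0088 to 0.33 for Spag6 and -4.28 to 0.063 for Dnahc6. The cause of these shifts was not tested. Of 286 values for single genes under alternatives, 245 kept direction and call, 19 lost the call, 7 gained it and 15 changed sign. The 245 include genes that were not called in the main fit and stayed so, and only called genes could lose a call. Rfx3 kept its call in 4 of 13 alternatives and Ak8 in 8, while Ccno and Dnahc1 kept theirs in all 13. No paired analysis was possible because the replicate numbers follow only the order of the samples and the labels give no pairing. The lowest count of a member was 8, held by Ak8, which was called, and by Tctex1d4, which was not.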
